A study of Mus musculus with 2 samples.

Results

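The 37 mouse protein-coding genes whose symbol starts with Ube2 were examined for binding of EP300, a co-activator that acetylates histones, by chromatin immunoprecipitation and sequencing (ChIP-seq). They are all the symbols with that prefix among the 21911 protein-coding gene symbols of GENCODE release M21. The series holds 2 libraries of 1 group, from stomach of mice of strain B6NCrl at postnatal age 0 days, with no second tissue, stage or treatment. Both libraries carry the label of the same biosample and donor, so whether they come from different animals is not given, and the animals' sex was not collected. Whole stomach holds muscle, epithelium, nerve and vessel cells, and a peak in it does not say which of them carried the binding.

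Ubiquitin-conjugating enzymes, or E2 enzymes, stand in the middle of the ubiquitin cascade: an E1 enzyme activates ubiquitin, the E2 carries it on a cysteine as a thioester, and an E3 ligase directs its transfer to a substrate. The E2 often decides which kind of chain is built, and thus whether the substrate goes to the proteasome or serves in signalling or DNA repair. Some E2 enzymes carry ubiquitin-like proteins, such as NEDD8, in place of ubiquitin. The prefix also covers proteins that are no active E2: the UBE2V variants lack the catalytic cysteine, and Ube2cbp encodes an E2-binding protein with ligase activity.

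The optimal set of peaks, kept by the authors through the irreproducible discovery rate (IDR, a measure of agreement between replicates), held 7733 peaks on the named chromosomes. Their conservative IDR set held 6972, of which 1811 had their summit in no optimal peak, so neither set contains the other. Signal below means the strength that the authors' peak caller wrote for each peak, and it is not comparable in size between lists. The lists hold no read counts, so the depth is unknown. The separate lists of replicate 1, replicate 2 and the pooled reads each hold 300000 peaks and thus reach far into weak signal. All 8 smooth muscle markers checked (Acta2, Actg2, Tagln, Myh11, Cnn1, Myl9, Lmod1 and Smtn) had an optimal summit within 50 kb of their start, as did 4 of 7 markers of squamous forestomach epithelium (Krt13, Krt15, Sfn and Evpl), 2 of 9 of glandular stomach epithelium (Gkn1 and Gkn2) and 0 of 8 of forebrain (exact 95% upper limit 36.9%), beside 34.9% of all protein-coding genes. Atp4a and Atp4b, subunits of the proton pump in acid-secreting cells, were glandular markers without one.

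Sequence upstream of 5 Ube2 genes is shown here: the 4 with the strongest promoter peaks among those in the RefSeq promoter table, and Ube2d1, a paralog of Ube2d3 with no listed peak at its start. The bases are from RefSeq (GRCm38.p6), 5′ to 3′ on the gene's strand, and end at the last base before the gene start, or 25 bp before it for Ube2b. Capitals mark matches on either strand to the motifs CCAAT (bound by NF-Y), GGGCGGG (KLF and SP factors), CCGGAAG (ETS factors) and CACGTG (the E-box of factors such as MYC and USF). Ube2d3 lies at chr3:135437982-135438148, Ube2c at chr2:164769679-164769897, Ube2f at chr1:91250054-91250303 (plus strand each), Ube2b at chr11:52000787-52001036 and Ube2d1 at chr10:71285263-71285512 (minus strand each).
Ube2d3: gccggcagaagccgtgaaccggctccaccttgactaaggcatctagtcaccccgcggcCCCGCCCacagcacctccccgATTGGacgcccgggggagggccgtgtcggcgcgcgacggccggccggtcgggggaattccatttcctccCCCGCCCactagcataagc
Ube2c: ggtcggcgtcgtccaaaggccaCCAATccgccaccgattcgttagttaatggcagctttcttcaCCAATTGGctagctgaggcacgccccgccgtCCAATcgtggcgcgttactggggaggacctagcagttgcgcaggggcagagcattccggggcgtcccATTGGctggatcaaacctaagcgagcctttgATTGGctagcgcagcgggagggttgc
Ube2f: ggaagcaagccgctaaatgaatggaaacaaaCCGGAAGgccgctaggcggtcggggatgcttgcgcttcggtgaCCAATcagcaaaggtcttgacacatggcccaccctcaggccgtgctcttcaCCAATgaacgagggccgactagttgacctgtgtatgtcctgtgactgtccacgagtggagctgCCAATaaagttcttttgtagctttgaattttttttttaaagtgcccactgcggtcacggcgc
Ube2b: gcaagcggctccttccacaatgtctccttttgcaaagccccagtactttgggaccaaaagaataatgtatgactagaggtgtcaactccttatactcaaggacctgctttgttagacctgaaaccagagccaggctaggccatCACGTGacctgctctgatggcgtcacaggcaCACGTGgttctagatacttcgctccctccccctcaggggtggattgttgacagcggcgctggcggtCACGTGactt
Ube2d1: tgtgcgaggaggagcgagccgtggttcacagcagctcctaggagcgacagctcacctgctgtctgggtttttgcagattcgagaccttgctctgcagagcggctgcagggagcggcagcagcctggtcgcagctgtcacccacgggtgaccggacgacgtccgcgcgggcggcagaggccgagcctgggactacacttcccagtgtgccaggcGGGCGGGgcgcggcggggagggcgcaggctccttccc

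The Ube2c stretch stands out by its repeated CCAAT boxes. In the 300-base RefSeq window (250 bases before to 50 after the start) Ube2c had 6 CCAAT matches, of which one pair overlaps in the run CCAATTGG. Only 14 of the 16521 protein-coding promoters in the table had 6 or more (0.0847%). Ube2b had 3 CACGTG matches, which 20 of the 16521 promoters equalled or passed (0.121%), and 1 match to the cyclic AMP response element TGACGTCA, which 2.42% of promoters held. Ube2d3 had 4 GGGCGGG matches in its window (2.58% of promoters had as many) and Ube2f had 3 CCAAT and 2 CCGGAAG matches (4.06% and 2.23%). These counts were singled out after they were seen.

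Of the 37 Ube2 genes, 30 were in the promoter table, among them 7 of the 10 with a promoter summit (Ube2b, Ube2c, Ube2d3, Ube2f, Ube2m, Ube2q1 and Ube2v1). CCGGAAG was found in 3 of these 7 (Ube2f, Ube2q1 and Ube2v1) and in 2 of the 23 others (Ube2j2 and Ube2n), beside 12.3% of all promoters and 25.0% of the 1775 promoters in the table with an EP300 summit. The YY1 motif AAGATGGC was in 2 of 7 (Ube2q1 and Ube2v1) and in 3 of 23 (Ube2g1, Ube2j2 and Ube2l3), beside 3.27% of all promoters and 7.04% of those with a summit. GGGCGGG was in 4 of 7 and 13 of 23 (35.4% of all promoters and 48.6% of those with a summit), and CCAAT in 3 of 7 and 6 of 23 (38.8% and 41.6%). CACGTG was in Ube2b and Ube2q1 of the 7 and in Ube2cbp of the 23 (8.09% of all promoters and 10.6% of those with a summit), and TGACGTCA in Ube2b and Ube2h alone among the 30 (2.42% and 3.38%). The AP-1 motif TGANTCA and the ZNF143 consensus were in none of the 30 (6.99% and 0.460% of all promoters, 4.73% and 0.845% of those with a summit), and the NRF1 consensus was in Ube2k alone (1.38% of all promoters and 1.92% of those with a summit). A match is a run of letters and not a measured binding site.

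EP300 lay at the start of 10 of the 37 Ube2 genes, counting optimal summits within 1 kb of the gene start (27.0%, exact 95% binomial interval 13.8 to 44.1). Over all protein-coding genes the share was 10.1% (2214 of 21911). Of the Ube2 promoters in the RefSeq table, 76.7% were rich in CpG (C followed by G), beside 47.7% of all in it. Rich means at least 50% GC and an observed over expected CpG of at least 0.6. Among genes with such promoters, 6 of 23 Ube2 genes had a summit (26.1%, exact 95% interval 10.2 to 48.4). The share of protein-coding genes with such promoters, 1408 of 7879, lies inside that interval. Whether composition accounts for the difference between 27.0% and 10.1% was not tested. Of the 10 Ube2 genes with a promoter summit, 9 are described here: Ube2b, Ube2c, Ube2d2a, Ube2d3, Ube2f, Ube2g2, Ube2m, Ube2q1 and Ube2v1. Intervals cover counting error only, and genes are not independent samples. None of the other 27 genes had its nearest summit between 1 and 10 kb. With a window of 10 kb the count was thus still 10, while the share over all protein-coding genes rose to 15.7% (3446 genes). In each of the 10 the promoter summit was nearer to the Ube2 start than to that of any other protein-coding gene.

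**Figure D1:**
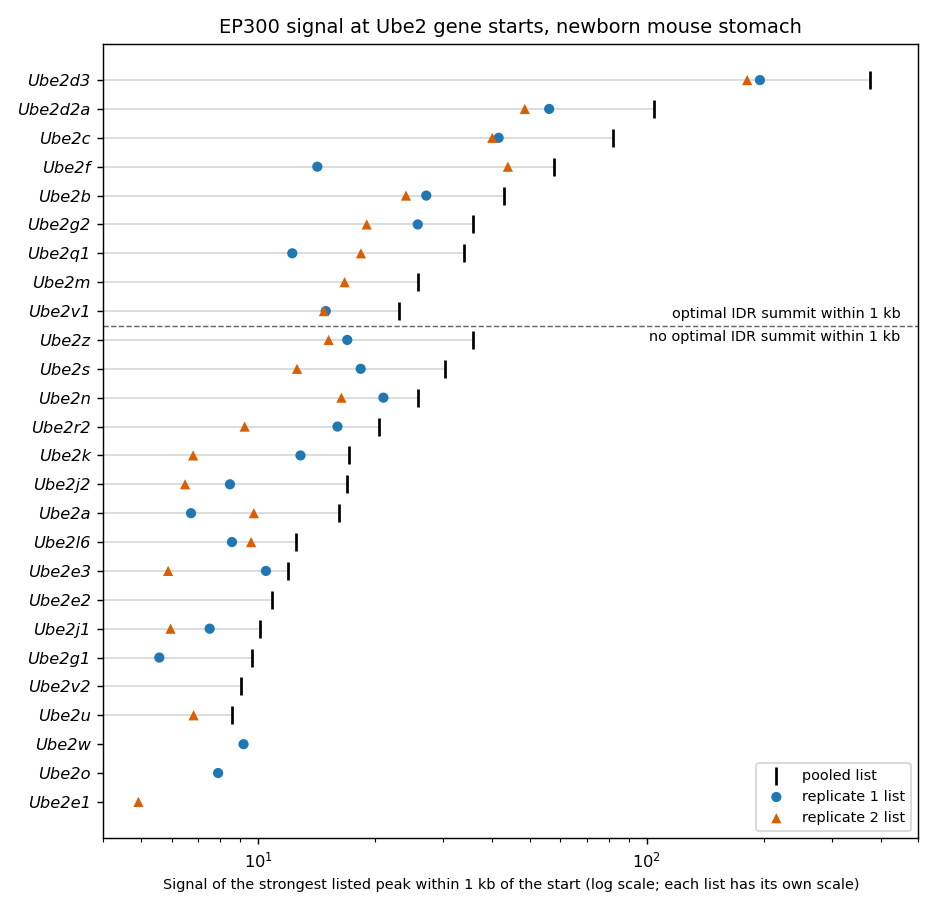
Signal of the strongest listed peak with its summit within 1 kb of each Ube2 gene start, on a log axis, in the list of replicate 1 (circles), of replicate 2 (triangles) and of the pooled reads (bars), for 26 genes with a peak in any of the lists. Ube2d3 stands far above the others, and Ube2z, Ube2s and Ube2n, without an optimal summit, reach above the weakest genes that have one.

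The UBE2D enzymes, general partners of RING ligases, held the strongest peaks of the family and also genes with no listed peak at all. Ube2d3 had a pooled signal of 376.0 (195.5 in replicate 1 and 181.3 in replicate 2), with the summit 105 bp downstream of the start on a UTR exon (mm10, chr3:135438044-135438469). It ranked 6 of 7733 in the optimal set, 5 in the list of replicate 1 and 6 in that of replicate 2. A second, weaker optimal peak lay 2734 bp downstream in an intron of Ube2d3, at rank 3315. It had 32.3 from pooled reads, 17.4 in replicate 1 and 17.4 in replicate 2, and was not in the conservative set. Ube2d2a had a pooled signal of 104.5 (56.1 in replicate 1 and 48.6 in replicate 2), 212 bp upstream of its start in intergenic sequence, at rank 188. Both replicates thus placed Ube2d3 above Ube2d2a. The promoter peaks of Ube2d3 and Ube2d2a were the only optimal ones of the family narrower than the full width of 560 bp, at 426 bp for Ube2d3 and 195 bp for Ube2d2a. In the replicate lists only Ube2d3 was narrow, at 324 bp in replicate 1 and 343 bp in replicate 2. The matched Ube2d2a peaks had the full width of those lists, 556 bp in replicate 1 and 536 bp in replicate 2. Of all 2604 optimal promoter peaks 130 were narrower (4.99%). Ube2d1, Ube2d2b, Ube2dnl1 and Ube2dnl2 had no peak within 1 kb in the pooled list or in either replicate list, and no optimal summit within 50 kb.

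Of the pair that serves the anaphase-promoting complex, the ligase that drives exit from mitosis, Ube2c had a strong promoter peak and Ube2s did not reach the optimal set. UBE2C starts ubiquitin chains on substrates of the complex and UBE2S extends them. Ube2c had a pooled signal of 82.0, with 41.6 in replicate 1 and 40.1 in replicate 2, and its summit lay 63 bp upstream of the start (chr2:164769555-164770114, intergenic). This peak overlaps the stretch with the CCAAT boxes. Ube2s had a pooled-list peak of 30.2 with its summit 536 bp upstream (18.4 in replicate 1 and 12.6 in replicate 2), which was in the conservative set (chr7:4812846-4813405) but in no optimal peak. The replicate signals of Ube2c were each more than the Ube2s signal in the same list.

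Both enzymes of NEDD8 had a promoter summit, and the replicates differed at each. UBE2M and UBE2F carry NEDD8 to cullins, the scaffolds of a large class of ligases. Ube2f had a pooled signal of 57.9, 48 bp upstream of the start (chr1:91249976-91250535), with 14.2 in replicate 1 (rank 7885) and 43.9 in replicate 2 (rank 285). Its ratio of replicate 1 to replicate 2 signal was 0.323, and 1.92% of the 2290 promoter peaks matched in both lists had a lower one. Ube2m had 2 overlapping peaks, of which the stronger (chr7:13037833-13038392) had 25.8 from pooled reads and 16.0 in replicate 2. Replicate 1 listed no peak within 1 kb of the Ube2m start, and neither peak was in the conservative set.

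Ube2b had a moderate peak that both replicates held alike. It encodes 1 of 2 RAD6 enzymes, which act in DNA damage tolerance and in the ubiquitylation of histone H2B. Its signal was 42.9 from pooled reads, 27.1 in replicate 1 and 24.0 in replicate 2, with the summit 144 bp downstream of the start in an intron (chr11:52000338-52000897). The paralog Ube2a, on the X chromosome, had no optimal promoter summit. Its strongest listed peaks within 1 kb had 16.2 in the pooled list, 6.73 in replicate 1 and 9.76 in replicate 2, below Ube2b in every list.

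Ube2g2, Ube2q1 and Ube2v1 had promoter peaks below that of Ube2b in pooled signal. Ube2g2, which encodes an enzyme that works with ligases of the endoplasmic reticulum, had 35.7 from pooled reads and 19.0 in replicate 2, 156 bp upstream (chr10:77621839-77622398). The summit of that peak also lies in an intron of Gm49325. No replicate 1 summit lay inside that peak, but replicate 1 listed a peak of 25.8 with its summit 144 bp downstream of the start, and the conservative set held a second peak there, 118 bp downstream. Ube2q1 had 33.9, 324 bp upstream (chr3:89773012-89773571), with 12.3 in replicate 1 (rank 12233) and 18.4 in replicate 2 (rank 3092). Ube2v1 encodes a variant without the catalytic cysteine that pairs with UBE2N to build lysine-63 chains, and had 23.0 (14.9 in replicate 1 and 14.8 in replicate 2), 177 bp upstream (chr2:167631992-167632551). This summit also lies in an intron of Gm20431, which overlaps the gene.

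Among themselves, the strongest promoter peaks of the 10 genes spanned a pooled signal from 23.0 to 376.0, with a median of 42.4 (quartiles 34.3 and 76.0). For the 2214 protein-coding genes with a promoter summit the median was 37.65 (quartiles 29.0 and 55.8), so the quartile ranges overlap. As percentiles among the 2604 promoter peaks the median was 70.1 for the Ube2 genes and 62.1 for all such genes, each taken at its strongest peak. A replicate peak with its summit inside was found in both lists for 8 of the 10 genes, the exceptions being Ube2g2 and Ube2m, and for 87.9% of all promoter peaks. The ratio of replicate 1 to replicate 2 signal had a median of 1.06 over these 8 (quartiles 0.925 and 1.13), beside 1.04 over all promoter peaks (quartiles 0.763 and 1.485). The conservative set held the strongest promoter peak of 9 of the 10, all but Ube2m, beside 66.4% of all promoter peaks. For the replicate match, the ratio and the conservative set, the values over all promoter peaks count every peak. Those for the Ube2 genes count only the strongest peak of each gene, so the pairs are not on a like basis.

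The 27 genes without an optimal promoter summit did not form a separate class by signal. Of these, 14 had a pooled-list summit within 1 kb, with signals from 8.59 to 35.7 and a median of 14.4. In all, 24 of 37 Ube2 genes had such a summit (64.9%), beside 40.9% of protein-coding genes. Ube2z, which encodes a dual enzyme for ubiquitin and FAT10, had 35.7 in the pooled list, 17.0 in replicate 1 and 15.2 in replicate 2, 205 bp upstream in the pooled list. That is above the pooled signal of Ube2m, Ube2q1 and Ube2v1, and just above that of Ube2g2 (35.74 for Ube2z and 35.70 for Ube2g2), yet the peak was in the conservative set (chr11:96065313-96065872) and not in the optimal one. Ube2n, the lysine-63 chain enzyme, had 25.9 in the pooled list, 21.02 in replicate 1 and 16.4 in replicate 2 and was in neither IDR set within 1 kb. These Ube2n summits lay apart, 499 bp upstream in the pooled list, 190 bp in replicate 1 and 642 bp in replicate 2. The Ube2n values thus need not belong to 1 shared peak. Ube2z, Ube2n and Ube2s were the 3 genes without an optimal promoter summit whose pooled signal passed the 23.0 of Ube2v1. At the other end, 10 genes had no listed peak within 1 kb in any of the 3 lists: Ube2cbp, Ube2d1, Ube2d2b, Ube2dnl1, Ube2dnl2, Ube2h, Ube2l3, Ube2q2, Ube2ql1 and Ube2t.

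Between these ends lay 11 genes with a pooled-list summit within 1 kb and a signal of 8.59 to 20.5, below every gene with an optimal promoter summit. The lysine-48 chain enzymes led them: Ube2r2 had 20.5 (16.0 in replicate 1 and 9.24 in replicate 2), and Ube2k had 17.2 (12.9 in replicate 1 and 6.81 in replicate 2). The Ube2r2 summit lay 294 bp upstream in the pooled list and 278 bp upstream in replicate 1, but 423 bp downstream in replicate 2. Of the enzymes of endoplasmic reticulum degradation, Ube2j2 had 16.9, Ube2j1 10.1 and Ube2g1 9.67, against the 35.7 of Ube2g2. Ube2a and Ube2l6 had 16.2 and 12.5, Ube2e3 and Ube2e2 12.0 and 10.9, Ube2v2 9.03 and Ube2u 8.59. The other 3 were listed in a single replicate and not in the pooled list: Ube2w (9.18) and Ube2o (7.90) in replicate 1, and Ube2e1 (4.92) in replicate 2. None of these reached the lowest replicate 2 signal of a gene with an optimal promoter summit, 14.8. In replicate 1, Ube2r2 and Ube2k passed the 12.3 of Ube2q1, the lowest listed there for such a gene. Ube2m, which also has an optimal promoter summit, had no listed replicate 1 peak within 1 kb.

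By role, the promoter summits were spread over the family: both NEDD8 enzymes, 2 of 6 UBE2D genes, 1 of 2 RAD6 genes, 1 of 2 enzymes of the anaphase-promoting complex, 1 of 4 enzymes of endoplasmic reticulum degradation, 1 of 3 UBE2Q genes and 1 of 3 for the lysine-63 chain enzyme and its variants. None was found for the 3 UBE2E genes, Ube2k and Ube2r2 (lysine-48 chains), Ube2l3 and Ube2l6 (partners of HECT and RBR ligases, UBE2L6 also the ISG15 enzyme), Ube2h, Ube2w and Ube2z, the Fanconi anaemia enzyme Ube2t, the large Ube2o, Ube2u or Ube2cbp. With 1 to 6 genes a role, these counts are a description.

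No Ube2 gene with an EP300 promoter summit shared its promoter with a coding gene on the opposite strand. The count of opposite coding starts within 1 kb was 0 of 10 (exact 95% upper limit 30.8%), beside 613 of the 2214 protein-coding genes with a promoter summit (27.7%). The 2 Ube2 genes that have such a neighbour, Ube2a (C330007P06Rik, 211 bp away) and Ube2k (Smim14, 49 bp away), had no optimal promoter summit. Opposite starts of non-coding genes within 1 kb were found for 4 of the 10 (Gm12204 at Ube2b, Gm11457 at Ube2c, 4930539J05Rik at Ube2d3 and 4632404H12Rik at Ube2q1), beside 3 of the 27 without a summit and 13.3% of all genes with one. These counts are without a test.

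**Figure D2:**
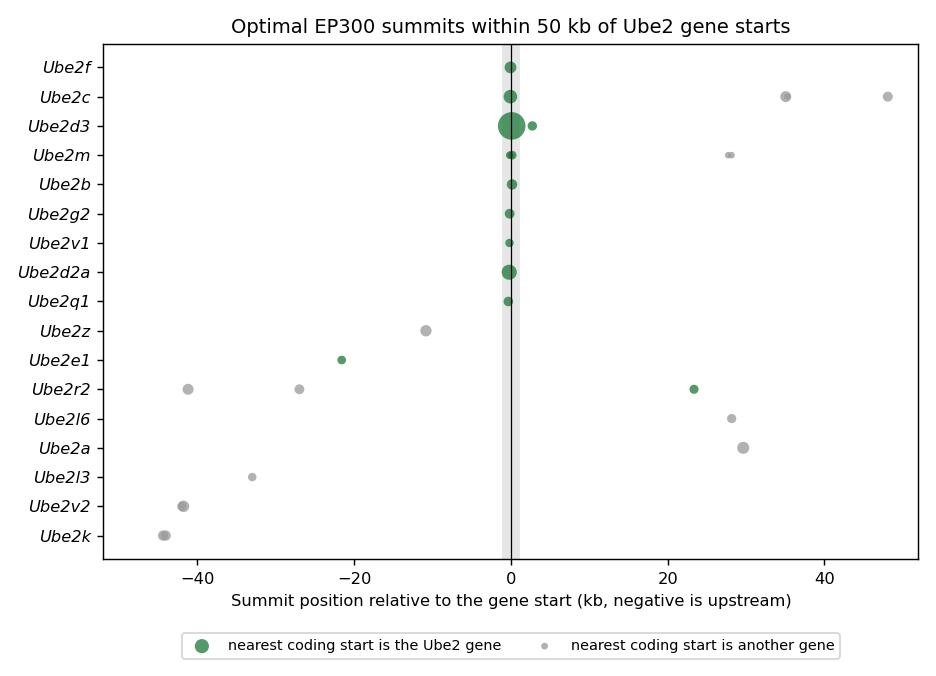
Position of every optimal summit within 50 kb of a Ube2 gene start, in kb along the gene's strand, with circle area growing with pooled signal, for 17 genes that have one. Every circle inside the grey band of 1 kb either side of the start is green (nearest to the Ube2 gene), and outside it 3 are green and the others grey (nearest to another gene).

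Farther from the start there was little EP300 that could be given to a Ube2 gene by position. Within 50 kb, 18 of 37 genes had an optimal summit (48.6%, interval 31.9 to 65.6), beside 34.9% of protein-coding genes (7653 of 21911). Of these 18, 10 had one within 1 kb and 8 (21.6% of the 37) only beyond it. Of the 7653 protein-coding genes, 2214 had one within 1 kb and the rest only beyond it. The Ube2 interval of 31.9 to 65.6 includes the 34.9% of protein-coding genes, so no excess within 50 kb is read from these counts. Between 1 and 50 kb there were 18 listed peaks, some of which overlap in pairs (near Ube2c, Ube2k, Ube2m and Ube2v2) and so mark fewer sites. Of these 18 peaks, 11, among them the overlapping ones, had their summit within 1 kb of the start of another coding gene. A further 4 were nearest to another gene, and 3 were nearest to a Ube2 gene. Those 3 are the intron peak of Ube2d3 above, a peak 21584 bp upstream of Ube2e1 and a peak in an intron of Ube2r2, 23364 bp downstream of its start. The Ube2e1 peak (chr14:18353163-18353722) had 25.0 from pooled reads and 16.6 in replicate 1, with no matched replicate 2 peak. The Ube2r2 peak (chr4:41158827-41159386) had 29.2 from pooled reads, 13.2 in replicate 1 and 13.6 in replicate 2. When each summit counted only for the nearest start, 12 of 37 Ube2 genes had one within 50 kb (32.4%), beside 16.4% of protein-coding genes. Of these 12, 10 had it within 1 kb (27.0% of the 37), beside 8.83% of protein-coding genes, so most of this count is the promoter summits and not farther peaks.

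The strongest of the peaks that belong by position to neighbours was the one 29644 bp from Ube2a. It lay 645 bp from the start of Nkrf, with 61.6 from pooled reads, 24.7 in replicate 1 and 30.6 in replicate 2. The peak 41774 bp upstream of Ube2v2 (54.8) was 147 bp from the start of Mcm4, which encodes a subunit of the replicative helicase, and the peak 10838 bp upstream of Ube2z (52.9) was 556 bp from that of Atp5g1, which encodes a subunit of ATP synthase. Ube2r2 lay near 2 further peaks, 26981 and 41186 bp upstream (36.0 and 48.5), both nearest to Aqp3, a water channel gene. The summits counted for Ube2k, Ube2l3 and Ube2l6 were nearest to Gm43552, Hic2 and Timm10. Farther summits of Ube2c were nearest to Acot8 (48.8), Zswim1 (37.65) and Zswim3 (8.35), and those of Ube2m to Zbtb45 (9.73 and 8.68).

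**Figure D3:**
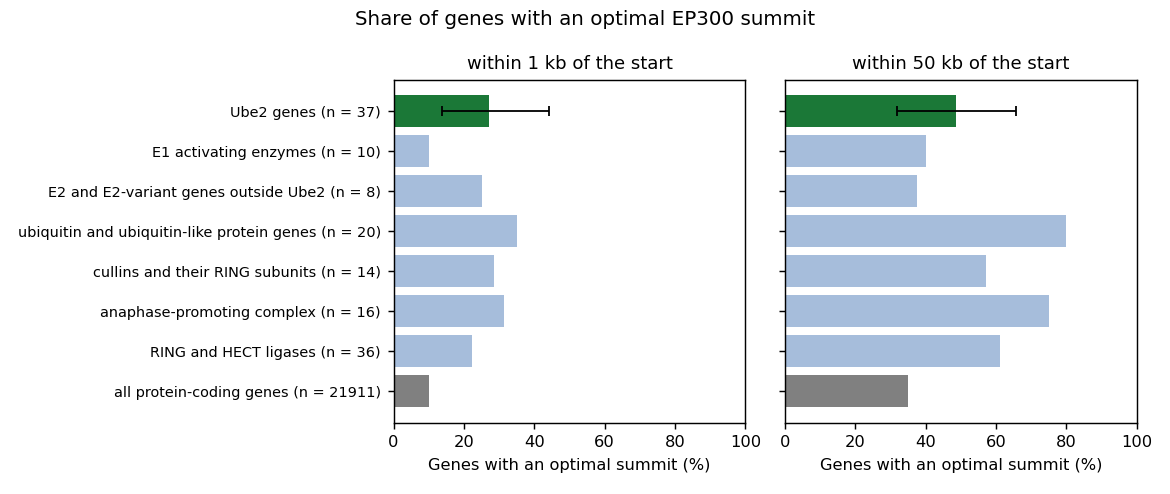
Percentage of genes with an optimal EP300 summit within 1 kb (left) and within 50 kb (right) of the start, for the Ube2 genes, 6 other lists of the ubiquitin system and all protein-coding genes. Bars start at 0, and the line on the Ube2 bar is the exact 95% binomial interval.

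Summed over the lists, other genes of the ubiquitin system had promoter summits at a share near that of the Ube2 genes, but the lists differed. Over 6 lists with 104 genes, 27 had an optimal summit within 1 kb (26.0%) and 65 within 50 kb (62.5%), beside 27.0% and 48.6% of the Ube2 genes and 10.1% and 34.9% of all protein-coding genes. Some of the 27 had it nearest to another gene, while all 10 Ube2 genes had it nearest to their own start. The 26.0% and 27.0% are thus not on a like basis. E1 activating enzymes had 1 of 10 within 1 kb (10%, at the background), which was Mocs3, at a peak nearest to Gm20716. E2 genes without the prefix had 2 of 8 (Atg3, at a peak nearest to Slc35a5, and Ufc1). The count was 7 of 20 for ubiquitin and ubiquitin-like proteins (among them Rps27a, at a peak nearest to Clhc1) and 4 of 14 for cullins and their RING subunits. It was 5 of 16 for the anaphase-promoting complex and 8 of 36 for RING and HECT ligases. The strongest promoter peak of the 6 lists was at Herc1, a giant HECT-domain protein, with 166.4 from pooled reads, 88.5 in replicate 1 and 77.9 in replicate 2. Ufm1, a ubiquitin-like modifier, had 129.7 (71.7 in replicate 1 and 63.3 in replicate 2), and Skp1a, the adaptor of cullin ligases, had 89.5 (40.0 in replicate 1 and 44.4 in replicate 2). No gene of the 6 lists thus reached the 376.0 of Ube2d3, and Herc1 and Ufm1 alone passed the 104.5 of Ube2d2a.

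Genes that work beside the Ube2 enzymes had promoter summits in part. Of the anaphase-promoting complex, which UBE2C and UBE2S serve, Cdc20, its activator, had 55.8 (24.0 in replicate 1 and 30.3 in replicate 2), Anapc5 39.2, Anapc11 (the RING subunit) 35.8, Cdc26 30.0 and Anapc13 25.6, the last pair at peaks nearest to Prpf4 and Cep63. Rnf7, the RING subunit that works with UBE2F, had 25.7 (17.2 in replicate 1 and 13.9 in replicate 2), whereas Rbx1, the partner of UBE2M, had a summit within 50 kb but none within 1 kb. Syvn1, a ligase of the endoplasmic reticulum, had 32.9. Of the ligases of the RAD6 enzymes, Rnf40 had a summit within 50 kb but none within 1 kb, and Rad18 and Rnf20 had none within 50 kb.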

How the data were processed

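EP300 ChIP-seq of newborn mouse stomach was deposited as 5 narrowPeak lists on mm10: 1 for each replicate, 1 for the pool of both, and 2 IDR sets (optimal and conservative). Per the deposited readme texts, the pooled list was made from both alignments and the IDR sets from the pooled and replicate lists. The signal values were made by the authors' peak caller, not named in the sources used here, and are not normalized between lists. The summit offset is counted from 0 from the peak start in the deposited lists. Peaks are cut at 300000 in 3 lists, so their length says nothing of depth.

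From these, each summit (start plus offset) was set against the 5′ end of each GENCODE M21 protein-coding gene on the named chromosomes (21911 symbols), within 1 kb and within 50 kb, with Python 3.11.15 and pandas 2.3.3; 4 optimal peaks lay elsewhere. Coordinates are 1-based. A replicate peak matched when its summit lay inside the optimal peak, and the strongest was taken. Percentiles rank signal among optimal peaks within 1 kb of a start. There is 1 group, so no test between conditions was made, and counts stand beside the same over all genes. Intervals are exact (Clopper-Pearson) at 95%. The assignment was tested on simulated data. Ube2 genes are named by these rules: those with a promoter summit with all 3 signals, those with a farther summit with its nearest coding start, and the rest with their strongest listed peak. Alternatives were other peak sets, windows, starts, single replicates and matching rules. Ube2 genes and lists were chosen with earlier results of these data known. Promoter bases are from RefSeq (GRCm38.p6), and Ube2d2a, Ube2e3, Ube2g2, Ube2o, Ube2v2 and Ube2w have no entry there. The counts include 1 gene with a promoter summit that is not reported here.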

Additional observations from a re-analysis of the deposited data

How the results depend on the processing

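The count of Ube2 genes with a promoter summit lay between 8 and 12 under 10 alternatives, while the share over all protein-coding genes lay between 7.14% and 12.2%. Each single replicate, taken at its strongest peaks, gave 11 genes (replicate 1) and 12 genes (replicate 2). Ube2b, Ube2c, Ube2d2a, Ube2d3 and Ube2g2 had a promoter summit in all 9 settings compared by gene, whereas Ube2m had one in 6. The conservative set added Ube2s and Ube2z and dropped Ube2m. With a window of 10 kb in place of 50 kb the count of 18 genes was 10, beside 15.7% of all protein-coding genes. With the other 8 alternatives the count lay between 12 and 23, and the share over all protein-coding genes between 16.4% and 49.1%. The median percentile of 70.1 was 67.6 in the conservative set, 58.9 in the stronger 50% of the optimal set and 61.4 in the strongest pooled peaks. It was 67.8 with a 500 bp window and 57.25 to 59.6 with 1 replicate left out. Each percentile ranks signal within its own set of peaks, so these values are not on 1 scale. The median over all protein-coding genes is not given for these sets, and the cause of the shifts was not tested. The median width of 560 bp was 536 to 556 bp with 1 replicate left out, since the full width differs between lists. With any overlap, 9 of the 10 promoter peaks matched both replicate lists, and with the strongest peaks of each list alone 6 did. No paired analysis was possible because there is only 1 group. Depth is unknown, so no value could be weighed by it.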
